A study of Homo sapiens with 8 samples.

Results

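Expression profiles of MIV-Luc cells carrying a hairpin against the interleukin-13 receptor alpha 2 chain (IL13RA2, protein IL13Rα2) were compared with those of cells carrying a scrambled hairpin, over both treatments at once. The comparison used all 8 of the 8 arrays, 4 of knockdown cells against 4 of scrambled-hairpin cells, and estimated 1 knockdown effect per gene in a model that also held a term for IL-13. This is called the knockdown main effect below. It is the average of the knockdown differences in mock-treated and in IL-13-treated cells, which need not be alike. It rests on 4 arrays a side in place of the 2 of a comparison within 1 treatment.

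MIV-Luc is a luciferase-expressing derivative of MCF10CA1a, the metastatic member of the MCF10A series of human mammary epithelial lines, and is used as a model of basal-like breast cancer. The 4 groups of 2 arrays were shSCR (− IL-13), shSCR (+ IL-13), shIL13Rα2#2 (− IL-13) and shIL13Rα2#2 (+ IL-13). Hairpins were delivered in the lentiviral vector pLKO, puromycin-resistant cells were used as a pool, and IL-13 was given at 20 ng/ml for 16 h while the other cells were mock-treated. Each construct was represented by 1 hairpin in 1 transduced population, so that effects of the receptor, of the hairpin's sequence and of the transduced pool cannot be told apart. The study's methods call the arrays of a group biological replicates. The deposited values are log2 expression on the scale of the RMA method, and differences below are knockdown minus scrambled on that scale.

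IL-13 signals through a receptor made of IL13Rα1 and IL4Rα, which activates JAK kinases and the transcription factor STAT6. IL13Rα2 binds the same cytokine tightly but has a short cytoplasmic tail and is described as a decoy receptor, and its gene is itself a target of STAT6. In basal mammary and skin epithelium the transcription factor p63 maintains the basal state, whereas other genes, CASP14 among them, are switched on late in differentiation.

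The targeted gene was measured first. IL13RA2 read 8.07 and 8.09 in mock-treated shSCR cells, 9.36 and 9.33 in IL-13-treated shSCR cells, 6.52 and 6.34 in mock-treated knockdown cells, and 8.23 and 8.15 in IL-13-treated knockdown cells. Within each treatment both knockdown arrays lay below both scrambled arrays, but the IL-13-treated knockdown cells lay slightly above the mock-treated shSCR cells. Over both treatments IL13RA2 fell by 1.40 on the log2 scale, a 2.64-fold lower level (95% CI -1.65 to -1.15, limma adjusted p = 0.00128). The difference was -1.65 in mock-treated and -1.16 in IL-13-treated cells. IL-13 itself raised IL13RA2 by 1.51 (adjusted p = 0.00075), and without a term for IL-13 in the model the knockdown difference was the same size but had an adjusted p of 0.358.

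At an adjusted p under 0.05, 186 of 29141 features changed with the knockdown, which is 0.638% of those tested. They represented 165 of 20193 genes (0.817%), of which 74 were higher (0.366% of all genes) and 91 lower (0.451%) in knockdown cells. With a fold change above 2 as well, 21 features (0.0721%) and 19 genes (0.0941%) were called, the other 2 features having no symbol, and 15 of these genes rose (0.0743%) while 4 fell (0.0198%). Most changes were smaller than 2-fold, with a median of 0.62 among the features that rose and -0.61 among those that fell. The features that passed were brighter than most, with a median level of 6.83 among those that rose and 7.56 among those that fell, against 5.03 over all features. All 19 genes kept an adjusted p under 0.05 when any 1 array was left out, whereas the 165 became 62 to 88. Of the genes under 2-fold named below, AGR2, AREG, CEACAM1, CFI, CNTN3, CTSB, CTSL1, CXCL1, DST, GCLC, IL31RA, IL7R, ITGA3, ITGA5, ITPR1, KRT18, KRT6B, LIFR, MIR205, MIR622, NRG4, PECAM1, THBS1, TIMP1, TNC, TP63, UGT1A1 and VIM each lost it in at least 1 such fit.

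**Figure D1:**
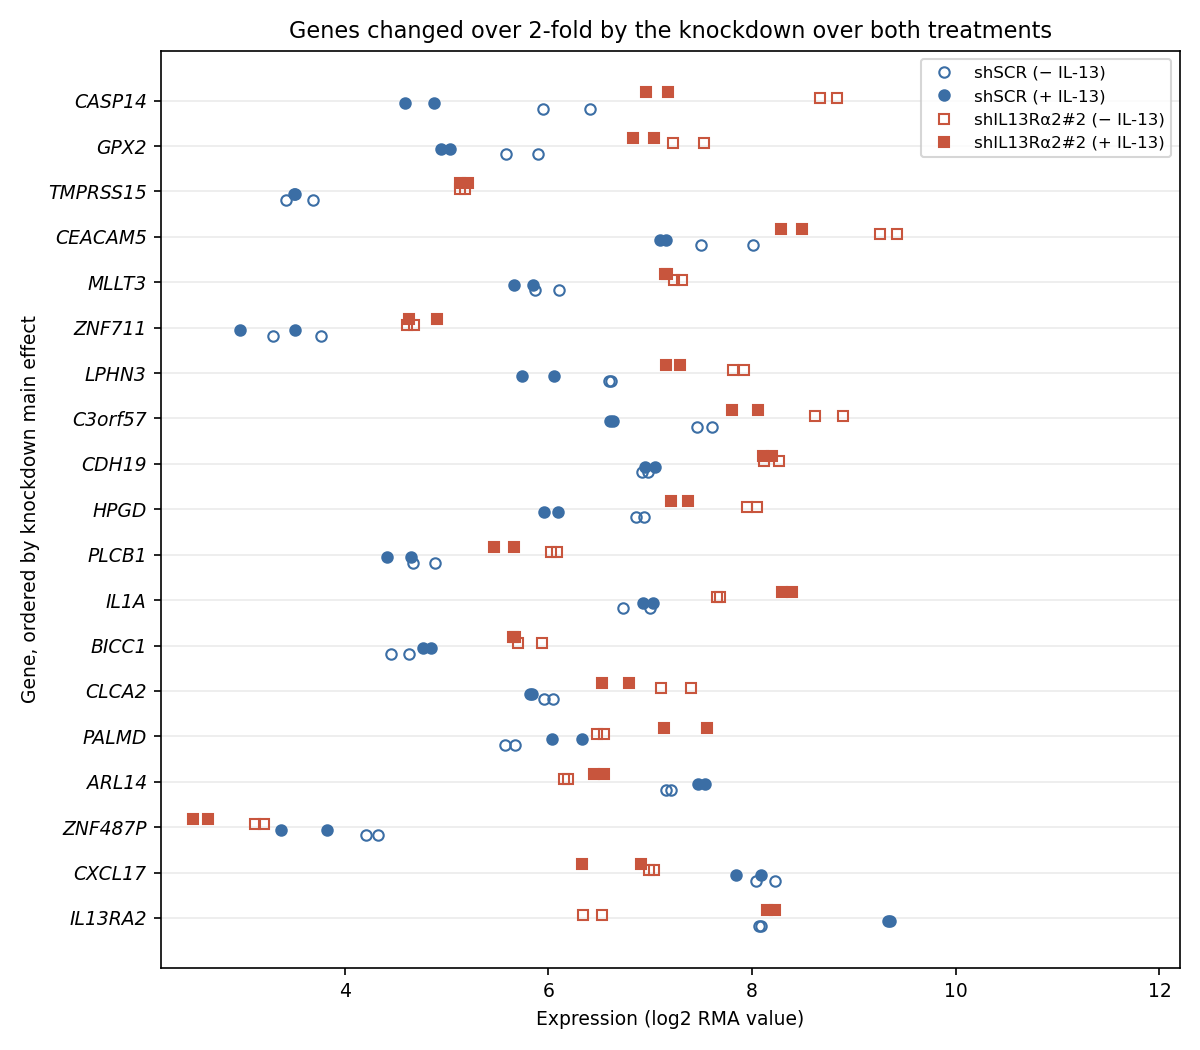
Log2 RMA value (x axis) of the 19 genes with an adjusted p under 0.05 and a fold change above 2 for the knockdown main effect, ordered by that effect from highest (top) to lowest. Circles are shSCR arrays and squares shIL13Rα2#2 arrays, open without and filled with IL-13, 2 arrays per group. In 18 of the 19 genes the circles and squares do not overlap, and IL13RA2 is the exception. Of all features 7.13% do not overlap, and the same arrays gave the calls.

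The largest increase of a named gene was in CASP14. This gene, a caspase of the late epidermis that takes part in the processing of filaggrin, read 6.41 and 5.94 in mock-treated and 4.59 and 4.88 in IL-13-treated shSCR cells. In knockdown cells it read 8.67 and 8.84 without and 7.17 and 6.96 with IL-13. Every knockdown array lay above every scrambled array, and in both constructs the IL-13-treated cells lay below the mock-treated ones. CASP14 rose 5.48-fold over both treatments (log2 2.45, 95% CI 2.16 to 2.74, adjusted p = 0.000232), by 2.58 in mock-treated and 2.33 in IL-13-treated cells. The effect of IL-13 on CASP14 over both constructs was -1.56.

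No other member of the list of 38 genes of late epidermal differentiation passed the test. This list and the lists below were chosen with earlier results of these data known, so counts of their members are descriptions only. For each of these lists, the share over all genes was 0.366% that rose and 0.451% that fell. The list held 1 gene that rose and 0 that fell, and its median change was -0.02 beside -0.01 over all genes. IVL (involucrin, difference -0.20), LOR (loricrin, -0.03), FLG (filaggrin, -0.05), KRT1 (0.28), KRT10 (0.04) and TGM1 (transglutaminase 1, 0.14) did not pass. SERPINB13, a squamous serine protease inhibitor that the study follows, differed by 0.77 with an adjusted p of 0.0595, just beyond the threshold.

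TP63, which encodes p63, read 5.06 and 4.87 in mock-treated and 6.107 and 5.999 in IL-13-treated shSCR cells, and 6.11 and 6.20 in mock-treated and 6.98 and 6.50 in IL-13-treated knockdown cells. Mock-treated knockdown cells and IL-13-treated shSCR cells thus stood at about the same level, and the cells with both stood highest. TP63 rose 1.92-fold with the knockdown over both treatments (log2 0.94, 95% CI 0.62 to 1.25, adjusted p = 0.0236), by 1.19 in mock-treated and 0.69 in IL-13-treated cells, and stood 0.84 higher with IL-13 (adjusted p = 0.059). With 1 array left out at a time, TP63 kept an adjusted p under 0.05 in 2 of 8 fits, and the p reached 0.108.

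Of 32 genes on the list of p63 and its targets in basal epithelium, 3 rose and 1 fell, and the median change was -0.02. Besides TP63, CLCA2, a p63-dependent adhesion-associated protein of stratified epithelium, read 5.82 to 6.05 over the shSCR arrays and 6.53 to 7.40 over the knockdown arrays. The constructs did not overlap, and CLCA2 rose 2.06-fold (log2 1.04, adjusted p = 0.00855). DST (dystonin, a hemidesmosome plaque protein) rose by 0.46, and ITGA3, the alpha chain of a laminin-binding integrin, fell by 0.48. The basal keratins KRT5 (difference 0.01, SE 0.10) and KRT14 (0.12, SE 0.08) and the hemidesmosomal integrin ITGB4 (0.01, SE 0.12) did not pass.

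**Figure D2:**
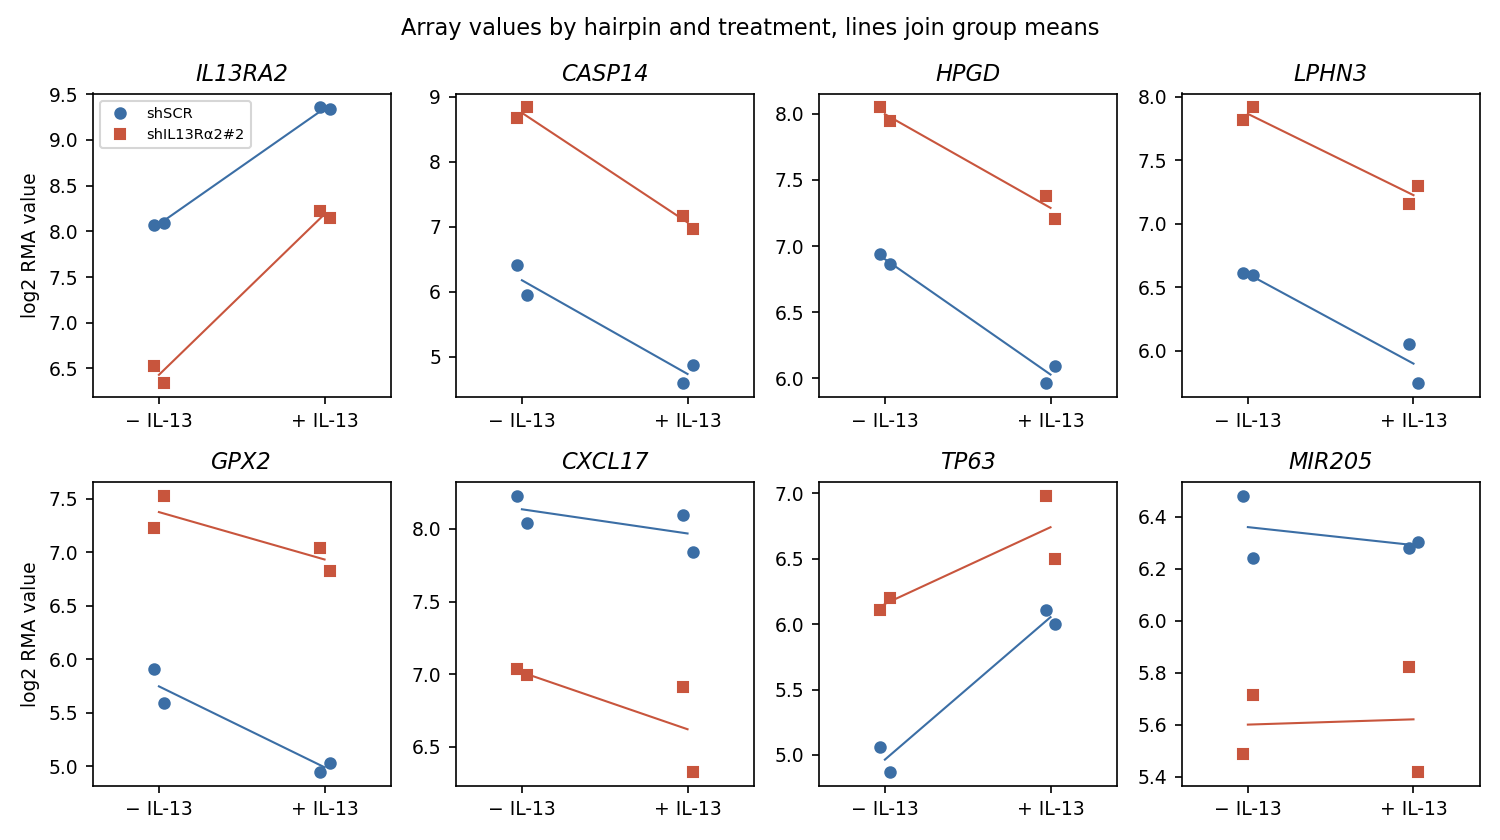
Log2 RMA values (y axis, a separate scale per gene) of 8 genes in cells without and with IL-13. Circles are shSCR and squares shIL13Rα2#2 arrays, 2 per group, and lines join the group means. The lines are offset in every panel, upward in knockdown cells for CASP14, HPGD, LPHN3, GPX2 and TP63 and downward for IL13RA2, CXCL17 and MIR205.

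The remaining chain of IL-13 signaling showed no change past the threshold. IL13RA2 was the only gene to pass, 1 that fell and 0 that rose, on the list of 23 receptor, JAK, STAT and SOCS genes, whose median change was -0.03. IL13RA1 differed by 0.18 (adjusted p = 0.393), IL4R by -0.16 (adjusted p = 0.531) and STAT6 by -0.19 (adjusted p = 0.393). Among 19 STAT6 targets IL13RA2, the target of the hairpin, was again the only gene that passed, and the list's median change was -0.05. At limma's unadjusted p under 0.05, 4 of them were higher and 3, IL13RA2 included, lower. Over all genes these shares were 5.92% and 7.08%. The squamous serpins SERPINB3 and SERPINB4, which IL-13 induces in epithelia, differed by 0.48 (adjusted p = 0.199) and 0.52 (adjusted p = 0.363) over both treatments, the latter 0.33 without 1 mock-treated shSCR array. Their differences lay mostly in mock-treated cells, at 0.78 and 1.01, against 0.18 and 0.04 in IL-13-treated cells, and the pair are near-identical paralogs whose probes can share RNA. CCL26, the eotaxin induced by STAT6, differed by -0.52 (adjusted p = 0.296), with -0.10 in mock-treated and -0.94 in IL-13-treated cells. CD36, a scavenger receptor, differed by 0.78 with an adjusted p of 0.116.

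Among redox genes GPX2 rose most. GPX2, a glutathione peroxidase of epithelia, read 5.90 and 5.59 in mock-treated and 4.95 and 5.03 in IL-13-treated shSCR cells, and 7.22 and 7.53 in mock-treated and 7.03 and 6.83 in IL-13-treated knockdown cells. All knockdown arrays lay above all shSCR arrays, and GPX2 rose 3.45-fold (log2 1.79, 95% CI 1.52 to 2.05, adjusted p = 0.000617). SLC7A11, the cystine transporter that supplies glutathione synthesis, rose by 0.71 (adjusted p = 0.00948). GCLC, the catalytic subunit of the enzyme that starts glutathione synthesis, rose by 0.45 (adjusted p = 0.036). These were the 3 of 30 NRF2 and glutathione genes that passed, none fell past the threshold, and the list's median change was 0. At limma's unadjusted p under 0.05, 4 of the 30 were higher and 5 lower, beside 5.92% and 7.08% of all genes. NQO1 (0.15), TXNRD1 (0.12), GCLM (0.07) and HMOX1 (-0.05), commonly used readouts of NRF2, did not pass.

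Of 28 genes of steroid and xenobiotic metabolism, AKR1C2 and UGT1A1 rose and none fell. AKR1C2, a ketosteroid reductase, stood between 11.24 and 11.45 in the shSCR arrays and between 12.00 and 12.05 in the knockdown arrays, an increase of 0.65 (adjusted p = 0.00856). UGT1A1, a glucuronosyltransferase whose later exons are shared by the whole UGT1A locus, rose by 0.71 (adjusted p = 0.011). The neighbouring AKR1C1 (0.23) and AKR1C3 (0.15), close paralogs of AKR1C2, did not pass, and probes that read more than 1 of these paralogs cannot be told apart in a gene-level value. SULT1E1, the estrogen sulfotransferase, differed by 1.19 with an adjusted p of 0.0942.

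The regions just before the transcription start of CASP14 and GPX2, as the genes with the largest increases, are shown with that of CXCL17, the named gene with the largest fall among those with a promoter in the RefSeq table (build GRCh38.p14). Each is the 250 bases before the start on the gene's strand, with capitals marking the letters of an AP-1 site (TGANTCA), an antioxidant response element core (TGACNNNGC) or a STAT6-type element (TTCNNNNGAA), searched on both strands.
CASP14, chr19:15049230-15049479, plus strand: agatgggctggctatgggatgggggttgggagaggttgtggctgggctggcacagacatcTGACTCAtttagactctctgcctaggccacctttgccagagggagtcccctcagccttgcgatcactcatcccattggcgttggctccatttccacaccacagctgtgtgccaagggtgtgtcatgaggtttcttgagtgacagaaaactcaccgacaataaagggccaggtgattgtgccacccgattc
GPX2, chr14:64942746-64942995, minus strand: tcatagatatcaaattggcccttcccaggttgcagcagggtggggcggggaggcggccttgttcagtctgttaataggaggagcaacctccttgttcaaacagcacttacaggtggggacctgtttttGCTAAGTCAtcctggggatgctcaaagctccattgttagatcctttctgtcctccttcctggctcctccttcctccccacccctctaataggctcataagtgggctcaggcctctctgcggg
CXCL17, chr19:42442947-42443196, minus strand: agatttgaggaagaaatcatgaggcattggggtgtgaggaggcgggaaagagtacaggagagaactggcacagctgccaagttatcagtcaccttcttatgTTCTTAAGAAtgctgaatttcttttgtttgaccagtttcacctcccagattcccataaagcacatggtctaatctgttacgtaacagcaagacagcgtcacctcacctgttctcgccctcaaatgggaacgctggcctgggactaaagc
The GPX2 match lies 122 to 114 bases before the start on the opposite strand, the CASP14 match 190 to 184 bases before it and the CXCL17 match 149 to 140 bases before it.

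Over all 27305 genes with such a region, 13.2% held the antioxidant core, 6.55% the STAT6-type element and 8.06% the AP-1 site. Among the 133 genes with an adjusted p under 0.05 that had a region, 20, 9 and 11 held them, in the same order. Of the 15 genes called above 2-fold with a region, 3 held the antioxidant core (GPX2, IL1A and ZNF487), 1 the STAT6-type element (CXCL17) and 4 the AP-1 site (CASP14, CLCA2, IL1A and TMPRSS15). A letter match describes the sequence and does not show that a factor binds there.

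Within the CEACAM family CEACAM5 rose and CEACAM1 fell. CEACAM5, the carcinoembryonic antigen, read 8.01 and 7.50 in mock-treated and 7.09 and 7.16 in IL-13-treated shSCR cells, and 9.26 and 9.42 in mock-treated and 8.49 and 8.28 in IL-13-treated knockdown cells. The knockdown arrays were all higher, and CEACAM5 rose 2.69-fold (log2 1.43, adjusted p = 0.00298). Its paralog CEACAM1, a cell adhesion molecule of epithelial and immune cells, fell by 0.64 (adjusted p = 0.019), and CEACAM6 differed by 0.41 (adjusted p = 0.0989). AGR2, a disulfide isomerase of secretory cells, rose by 0.48 (adjusted p = 0.0474), and its effect of IL-13 was -1.29. In all, 2 of 28 genes of the CEACAM, mucin and secretory list rose and 2 fell, with a median change of 0.01.

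CXCL17, a mucosal chemokine, was the other secretory gene that fell. It stood between 7.84 and 8.23 in the shSCR arrays, at 7.03 and 6.99 in mock-treated and at 6.92 and 6.33 in IL-13-treated knockdown cells. The arrays of the constructs did not overlap, and CXCL17 fell 2.35-fold (log2 -1.23, 95% CI -1.54 to -0.93, adjusted p = 0.00747). IL1A, the alarmin interleukin-1 alpha, stood between 6.73 and 7.03 in shSCR cells and at 7.66, 7.69, 8.29 and 8.40 in knockdown cells, the higher pair with IL-13. It rose 2.12-fold (log2 1.09, adjusted p = 0.00856). CXCL1, a neutrophil chemokine, rose by 0.53 (adjusted p = 0.0446). These made 2 rising and 1 falling gene among 28 chemokines and epithelial cytokines, whose median change was 0. IL1B differed by -0.39 (adjusted p = 0.298) and IL8 by 0.14 (adjusted p = 0.594).

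Of the prostaglandin and purine enzymes, HPGD rose and NT5E fell. HPGD, the dehydrogenase that inactivates prostaglandins, read 6.94 and 6.86 in mock-treated and 5.96 and 6.10 in IL-13-treated shSCR cells, and 8.05 and 7.95 in mock-treated and 7.38 and 7.20 in IL-13-treated knockdown cells. It rose 2.26-fold (log2 1.18, adjusted p = 0.000617), with no overlap between constructs, and was the 1 of 22 prostaglandin and lipoxygenase genes that passed. PTGS2, the inducible cyclooxygenase, differed by 0.13 (adjusted p = 0.753). NT5E, the ecto-enzyme CD73 that makes adenosine, stood between 9.34 and 9.72 in shSCR cells and between 8.31 and 8.84 in knockdown cells. It fell by 0.95 (1.94-fold, adjusted p = 0.000853) and was the 1 of 19 purine and adenosine genes that passed. DHRS9, a retinol and steroid dehydrogenase outside the lists, was chosen after its values were seen and fell by 0.97 (adjusted p = 0.00248).

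LPHN3 and CDH19 rose among genes of neuronal and neural crest adhesion. LPHN3 (now ADGRL3, an adhesion G protein-coupled receptor) read 6.61 and 6.60 in mock-treated and 6.05 and 5.74 in IL-13-treated shSCR cells, and 7.81 and 7.92 in mock-treated and 7.16 and 7.30 in IL-13-treated knockdown cells. It rose 2.45-fold (log2 1.29, adjusted p = 0.000617). CDH19, a cadherin of the neural crest lineage, stood between 6.92 and 7.05 in shSCR cells and between 8.11 and 8.26 in knockdown cells, and rose 2.29-fold (log2 1.20, adjusted p = 0.000617). CNTN3, a contactin, fell by 0.45 (adjusted p = 0.0496), so that 2 of 28 genes of this list rose and 1 fell, with a median change of 0.05.

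PLCB1, a phospholipase C that releases inositol trisphosphate, rose 2.23-fold (log2 1.16, adjusted p = 0.00248), from 4.42 to 4.89 over the shSCR arrays to 5.47 to 6.08 over the knockdown arrays. ITPR1, a receptor for inositol trisphosphate, rose by 0.48 (adjusted p = 0.0379). ARL14, a small GTPase of vesicle transport, read 7.15, 7.20, 7.47 and 7.54 in shSCR cells and 6.15, 6.19, 6.45 and 6.55 in knockdown cells, the higher pair of each with IL-13. Its fall of 2.01-fold (log2 -1.005, adjusted p = 0.000617) lay just past the 2-fold limit, and the log2 difference was -1.005 in mock-treated and -1.004 in IL-13-treated cells. The list of 29 genes of calcium, phosphoinositide and GTPase signaling held these 2 that rose and 1 that fell, with a median change of 0.08.

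The other genes above 2-fold came from no common list. TMPRSS15, enteropeptidase, was a dim gene at 3.42 to 3.69 in shSCR cells and stood at 5.14 to 5.21 in knockdown cells, and rose 3.11-fold (log2 1.64, adjusted p = 0.000232). MLLT3, a subunit of the super elongation complex, rose 2.53-fold from between 5.67 and 6.10 to between 7.15 and 7.31 (adjusted p = 0.000617). C3orf57 (now SPTSSB, a small subunit of serine palmitoyltransferase) rose by 1.27, and its level was lower with IL-13 in both constructs. ZNF711, a zinc finger protein, was also dim, at 2.97 to 3.77 in shSCR cells and 4.61 to 4.90 in knockdown cells, and rose by 1.32. BICC1, an RNA-binding protein, rose by 1.06 and PALMD, palmdelphin, by 1.02. ZNF487P (now ZNF487) fell by 1.06 at low levels, from between 3.38 and 4.33 to between 2.51 and 3.21.

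In the extracellular matrix list 3 of 40 genes rose and 2 fell, with a median change of -0.02. COL12A1, a fibril-associated collagen, rose by 0.92 (adjusted p = 0.00291) from between 7.08 and 7.34 to between 8.05 and 8.19. THBS1, thrombospondin 1, rose by 0.58 (adjusted p = 0.0343), and TMPRSS15 stood in this list as a protease. TIMP1, an inhibitor of matrix metalloproteinases, fell by 0.81 (adjusted p = 0.0118), and TNC, tenascin C, fell by 0.57 (adjusted p = 0.0184). VIM, the mesenchymal intermediate filament vimentin, fell by 0.65 (adjusted p = 0.0103) and was the 1 of 30 genes of the epithelial-mesenchymal transition list that passed, the list having a median change of -0.05. CDH1 (-0.15), CDH2 (-0.15) and ZEB1 (-0.17) did not pass. At limma's unadjusted p under 0.05, 4 of the 30 genes were higher and 9, VIM included, lower. Over all genes these shares were 5.92% and 7.08%.

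Complement and serpin genes gave 1 rise and 2 falls among 22 genes, with a median change of -0.10. CFI, the protease that inactivates complement C3b, read 4.47 and 4.81 in mock-treated and 5.65 and 5.41 in IL-13-treated shSCR cells, and 5.56 and 5.68 in mock-treated and 6.56 and 6.18 in IL-13-treated knockdown cells. The knockdown arrays were higher within each treatment, and CFI rose by 0.91 (1.88-fold, adjusted p = 0.0137), with an IL-13 effect of 0.82. SERPINA1, alpha-1-antitrypsin, fell by 0.98 (1.98-fold, adjusted p = 0.00946), just short of the 2-fold limit. SERPINB1, an inhibitor of neutrophil proteases, fell by 0.62 (adjusted p = 0.00831).

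In 5 of the 20 lists no gene passed in either direction. These were 29 genes of serine synthesis and amino acid stress, 28 interferon-stimulated genes, 30 genes of DNA replication and mitosis, 25 of hypoxia and glycolysis and 16 of small RNA processing. Their median changes were -0.01, -0.08, -0.11, 0.06 and 0.03. At limma's unadjusted p under 0.05, which 5.92% of all genes met on the higher and 7.08% on the lower side, the counts of higher and lower genes were 3 and 2, 4 and 4, 3 and 4, 6 and 3, and 1 and 1 in the same order.

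**Figure D3:**
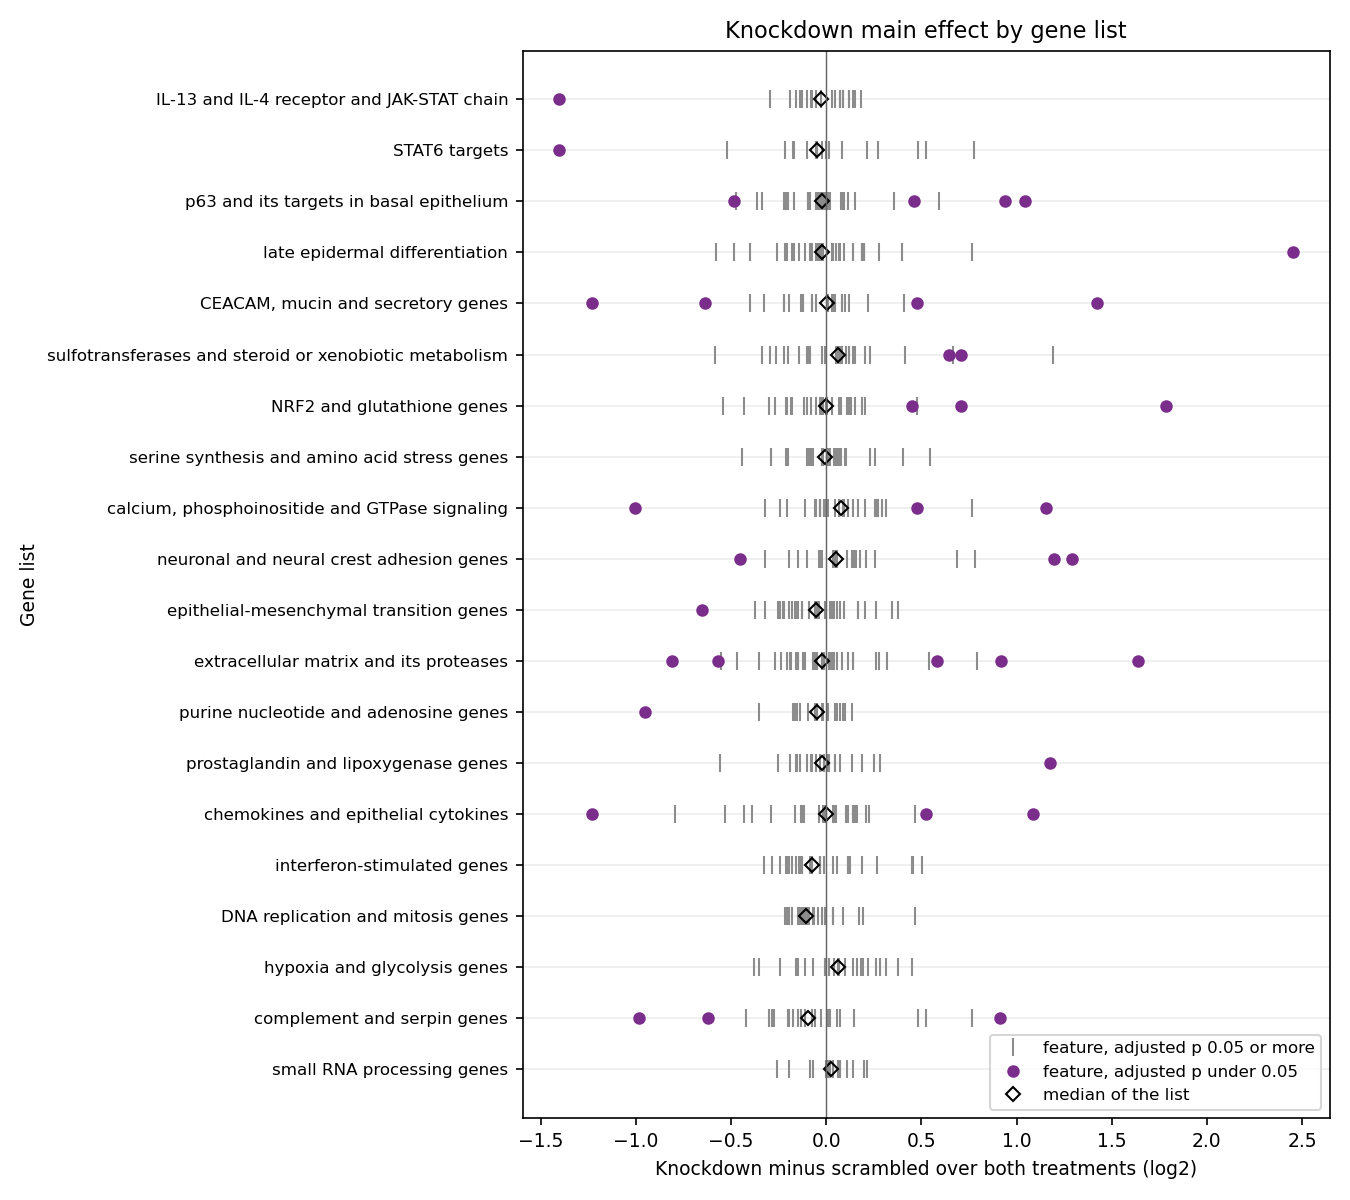
Knockdown main effect (log2, x axis) of each feature of the 20 pathway lists (rows). Bars are features that did not pass, filled circles features with an adjusted p under 0.05, and open diamonds list medians, which lie between -0.11 and 0.08 while single genes such as CASP14 at 2.45 or IL13RA2 at -1.40 stand far out.

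The lists above were chosen with earlier results of these data known. Further families were picked out after the values themselves were seen and are described without a test. For each family here and below, the share over all genes was 0.451% that fell and 0.366% that rose. Among 33 type I cytokine receptor chains 4 fell and 0 rose, with a median change of -0.03. LIFR, the receptor for leukemia inhibitory factor, fell by 0.88 (adjusted p = 0.026), from 6.49, 6.20, 6.89 and 7.07 in shSCR cells to 5.42, 5.89, 5.96 and 5.87 in knockdown cells. IL31RA, a receptor chain for interleukin-31, fell by 0.57, IL7R, the interleukin-7 receptor, fell by 0.51, and IL13RA2 itself was the fourth. The shared signaling chain IL6ST (0.08) and OSMR (-0.13) did not pass. Among 16 cathepsins, the lysosomal proteases, 3 fell and 0 rose. CTSL2 (now CTSV) fell by 0.80 (adjusted p = 0.00856), CTSL1 (now CTSL) fell by 0.57 and CTSB fell by 0.53. CTSL1 and CTSL2 are close paralogs, and the file marks neither feature for cross-hybridization.

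Of 25 integrin chains, ITGA3 and ITGA5, the latter the alpha chain of the fibronectin receptor, fell by 0.48 and 0.47, and none rose. Of 11 ligands of the EGF family, NRG4 rose by 0.48 and AREG fell by 0.42 and 0.43 on its 2 features. AREG was bright, at 10.50 to 11.13 in shSCR cells and 10.01 to 10.67 in knockdown cells over both features. INHBA, the activin A subunit, was also chosen after its values were seen and fell by 0.89 (adjusted p = 0.00937). TGFBR1, the type I receptor for TGF-beta, and EGR1, an immediate early transcription factor, were chosen in the same way. TGFBR1 fell by 0.67 (adjusted p = 0.00937) and EGR1 fell by 0.71 (adjusted p = 0.00855).

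Among 202 microRNA genes with a feature, 3 fell and none rose, with a median change of -0.02 (192 of them had an entry in the RefSeq table). The array feature reads RNA of the microRNA gene and not the mature molecule. The mature sequences of the genes that fell, and of MIR222, which lies beside MIR221, are given with the seed, bases 2 to 8, in capitals.
hsa-miR-205-5p: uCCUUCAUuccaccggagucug
hsa-miR-221-3p: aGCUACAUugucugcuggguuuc
hsa-miR-222-3p: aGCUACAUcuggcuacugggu
hsa-miR-622: aCAGUCUGcugagguuggagc
The mature miR-221-3p and miR-222-3p share the seed GCUACAU, and the others have seeds of their own.

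MIR205, whose product is characteristic of basal epithelium, read 6.48 and 6.24 in mock-treated and 6.28 and 6.30 in IL-13-treated shSCR cells, and 5.49 and 5.71 in mock-treated and 5.82 and 5.42 in IL-13-treated knockdown cells. The knockdown arrays were all lower, and MIR205 fell by 0.71 (adjusted p = 0.0284). MIR221 stood between 6.68 and 7.18 in shSCR cells and between 6.01 and 6.49 in knockdown cells and fell by 0.62 (adjusted p = 0.00998). MIR222 differed by -0.59 with an adjusted p of 0.398, and of its knockdown arrays 1 with IL-13 read 6.24 while the other 3 read 4.95 to 5.08. Without 1 of the 8 arrays its difference ranged from -0.88 to -0.39. MIR622 fell by 0.58 (adjusted p = 0.0388).

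The knockdown effect was then compared between treatments, which share no array for this purpose. All 186 features that passed had both knockdown arrays on the same side of both shSCR arrays in each treatment, an arrangement that 12.1% of all features showed. Over all 8 arrays, 168 of them (90.3%) did not overlap between constructs, against 7.13% of all features. These values come from the arrays that gave the calls and describe the calls only. Of the 19 genes above 2-fold, 15 exceeded 2-fold in mock-treated and in IL-13-treated cells taken alone, and no other gene did (0.0743% of all genes). At an adjusted p under 0.05 within a treatment, 14 of the 19 passed in mock-treated cells and 11 in IL-13-treated cells. Over all genes, 17 (0.0842%) passed in mock-treated and 15 (0.0743%) in IL-13-treated cells. For these tests the median standard error over all features was 0.141 against 0.101 for the main effect.

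**Figure D4:**
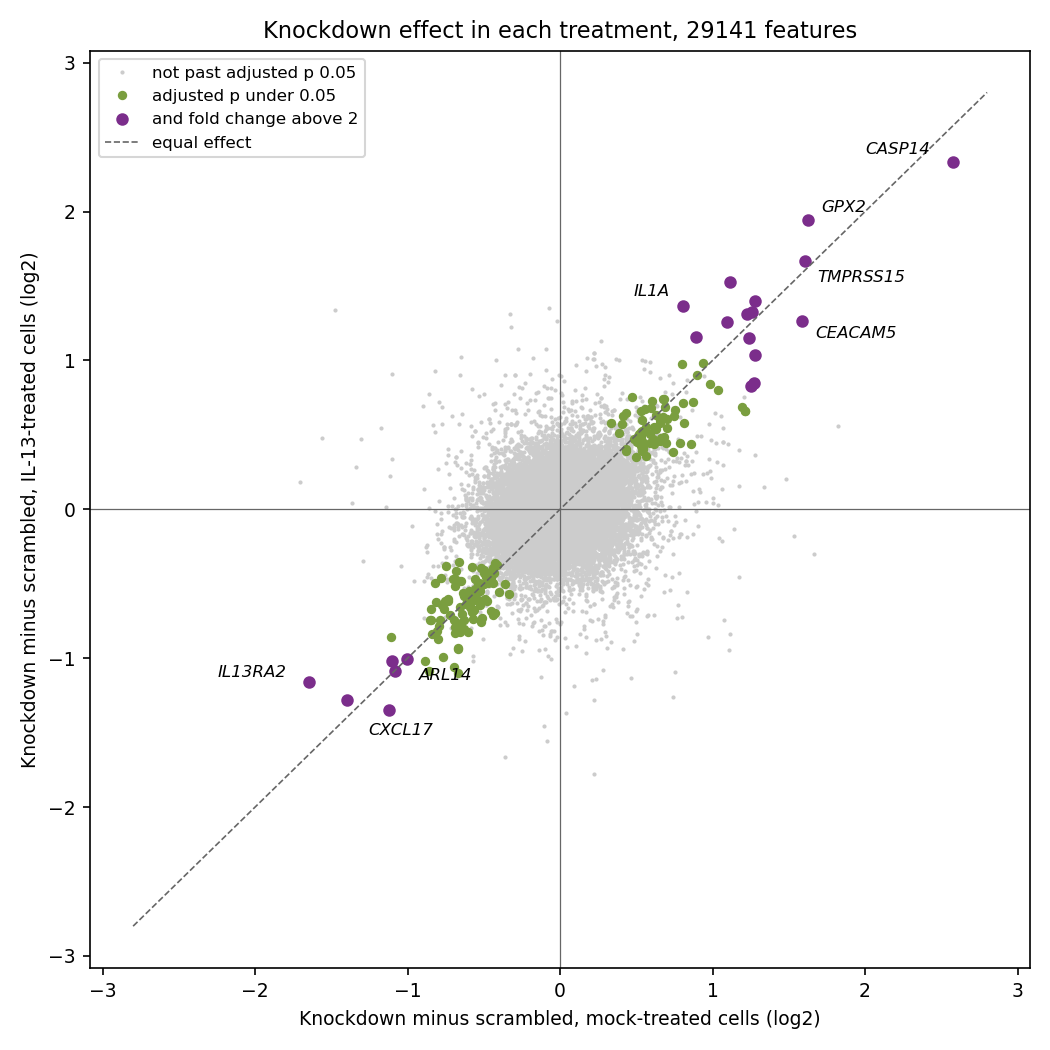
Knockdown minus scrambled (log2) in mock-treated (x axis) and IL-13-treated cells (y axis) for 29141 features. Grey points did not pass, green points have an adjusted p under 0.05 for the main effect and purple points also a fold change above 2; the dashed line marks equal effects, and every coloured point has the same sign in both treatments (Pearson r over all features 0.243).

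Features were also chosen in 1 treatment and read in the other. The 50 features with the highest and the 50 with the lowest knockdown difference in mock-treated cells kept their sign in IL-13-treated cells in 73 of 100 cases, 41 of the high and 32 of the low ones. Their medians went from 1.13 to 0.45 and from -0.89 to -0.32. Chosen in IL-13-treated cells and read in mock-treated ones, 63 of 100 kept their sign. Restricting the choice to features with a gene symbol raised the first share to 88 of 100. With 25 features at each end it was 34 of 50, 21 of the high and 13 of the low ones, and with 100 at each end 151 of 200. Features are not independent replicates, so no test is attached to these shares.

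No feature passed an adjusted p under 0.05 in limma's test of the interaction, the difference between the knockdown effects with and without IL-13. The smallest adjusted p was 0.624, and 1304 features (4.47%) had an unadjusted p under 0.05. Among the 186 features with a main effect, 6 (3.23%) had one. IL13RA2, IL1A and BICC1 were the 3 of the 19 genes above 2-fold with an unadjusted p under 0.05. The BICC1 difference was 1.27 in mock-treated and 0.85 in IL-13-treated cells (interaction -0.42, SE 0.17, adjusted p = 0.989). For IL13RA2 the interaction was 0.49 with a standard error of 0.15, and differences of this size between the treatments were not detectable after adjustment with 2 arrays per group.

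Across all features, the knockdown took 19.8% of the sum of squares around the feature means, IL-13 took 18.5%, their interaction 12.1% and the spread between arrays of a group 49.6%. The first principal component, 21.7% of the variance, placed all knockdown arrays (2.33 to 24.50) above all shSCR arrays (-26.35 to -3.24). Array medians were 5.02 to 5.06. No chromosome's median knockdown effect lay beyond 0.03.

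Markers of the labelled cell type and of others were read in the same fit. Basal epithelial markers were bright, at levels of 6.17 to 9.73, and KRT6B was the 1 of 8 genes that passed, and fell by 0.40. Luminal markers ranged from 3.20 to 10.11, and 7 of their 10 features lay above the all-feature median. Their median level was 7.27, against 7.6 for the basal features, while ESR1 read 3.76 to 4.40 and PGR 3.03 to 3.45. The summed linear level of the luminal features was 2603 to 3133 in shSCR and 2252 to 2570 in knockdown arrays. For the basal features it was 2629 to 3235 and 2381 to 2864. KRT18, the keratin of simple epithelia, was the 1 of 8 luminal genes that passed, with a fall of 0.60 (adjusted p = 0.0214) on 1 feature. Another feature of KRT18 differed by -0.30 and did not pass (limma adjusted p = 0.281). No fibroblast or immune marker passed, and PTPRC, the leukocyte antigen CD45, read 2.27 to 2.71. PECAM1, an endothelial adhesion molecule, rose by 0.53 (adjusted p = 0.0388) and was the 1 of 8 endothelial markers that passed. It read 7.71 to 8.82 over the arrays while CDH5 read 4.40 to 4.83, VWF 3.65 to 4.07 and KDR 3.74 to 4.11. The summed linear level of the 8 endothelial features was 358 to 456 in shSCR and 425 to 597 in knockdown arrays, and its part in the results was not tested.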

How the data were processed

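Log2 expression values of 8 arrays (4 groups of 2) were used. The authors hybridised the RNA to Affymetrix GeneChip arrays and deposited log2 values per gene-level feature, made with RMA (background correction, quantile normalization over the arrays, probe summary) in Affymetrix Expression Console 1. Columns were assigned to groups by construct and treatment in their headings, which give no replicate numbers. The headings carry 1 date, and their running numbers place all shSCR arrays before all knockdown arrays, so that order and construct cannot be told apart. The authors named the exon array, while the table has 33297 gene-level features.

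After removal of 4156 control rows, 29141 features entered the tests, with no filter on signal. Of 20193 symbols, 17206 were current, 2165 were matched by RefSeq accession, 426 as older symbols and 396 not at all, and 7102 features had no symbol. Intercept, treatment and construct were fitted with limma 3.58.1 in R 4.3.3 (5 residual and 3.86 prior degrees of freedom), and Benjamini-Hochberg adjustment ran over all features. Genes were called at an adjusted p under 0.05 and a fold change above 2 and counted by symbol. The interaction and within-treatment effects came from a limma fit of 4 group means. The procedure was run on simulated data with independent noise between arrays. Those data held no effect of IL-13, of a transduced pool or of array order, so they do not bear on these limits. The number of arrays limits the precision, and p-values measure the spread between arrays of 1 pool per construct.

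Genes named were IL13RA2, the genes the study names, up to 12 called genes in each direction, taken by fold change among those whose arrays did not overlap within treatments, the 5 with the smallest adjusted p, up to 5 with the smallest interaction p, and list members that passed. Members, lists and this rule were chosen with earlier results of these data known. BICC1, PALMD, DHRS9, INHBA, TGFBR1, EGR1, CCL26 and SULT1E1 were added after their values were seen. So were the markers KRT6B, KRT18 and PECAM1 and the genes of families. Sequences are from RefSeq (GRCh38.p14). Alternatives were other tests, models, priors, filters and normalizations, and leaving out each array.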

Additional observations from a re-analysis of the deposited data

Results flagged for a closer look

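The knockdown effects in IL-13-treated and mock-treated cells were compared for 58 named genes that passed the main-effect test and 8 that did not. Of these genes, 8 had an unadjusted p under 0.05 in limma's test of whether the knockdown effect differed between treatments. BICC1, CCL26, INHBA and SULT1E1 among them had been added after their values were seen, so the count is a description only. The 8 are given here with the 5 genes of smallest p, and none passed adjustment over all features. Values are the effect in IL-13-treated minus that in mock-treated cells on the log2 scale. Such a p was found for 4.47% of all features. IL13RA2 gave 0.49 (unadjusted p = 0.0134, adjusted p = 0.989), from -1.65 in mock-treated to -1.16 in IL-13-treated cells. IL1A gave 0.56 (unadjusted p = 0.0132), from 0.81 to 1.36.

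SERPINB3 gave -0.60 (unadjusted p = 0.00768) and SERPINB4 gave -0.96 (unadjusted p = 0.0046), both with a difference near 0 in IL-13-treated cells. SERPINB3 read 10.70 to 10.97 over all IL-13-treated arrays of both constructs, and 6.84 to 7.78 over the mock-treated ones. CCL26 gave -0.84 (unadjusted p = 0.00286), from -0.10 to -0.94. SULT1E1 gave -1.27 (unadjusted p = 0.00139), from 1.82 to 0.56. INHBA gave -0.43 (unadjusted p = 0.0268), from -0.67 to -1.10, and BICC1 gave -0.42 (unadjusted p = 0.0441), from 1.27 to 0.85.

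The genes with the smallest interaction p were mostly dim and did not pass the test of the knockdown main effect. RXFP1, the relaxin receptor, gave -1.28, from 1.06 in mock-treated to -0.21 in IL-13-treated cells. LOC91316 gave 1.04, LOC100130876 gave 0.94, ZNF778 gave -1.12 and FLJ44838 gave 1.52. Their unadjusted p ranged from 0.000141 for RXFP1 to 0.000495 for FLJ44838.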

How the results depend on the processing

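No gene named in the report and run under the alternatives changed direction. Among them was an analysis of variance by construct alone over all 8 arrays, without a treatment term. The study's methods name such an analysis, but its comparisons were between single conditions, so this is not the study's own test. The 19 genes above 2-fold became 3 under the methods' analysis of variance with adjusted p, 11 without the variance prior, 11 without the treatment term, and 90 at a fold change above 1.5; without a fold limit they were the 165. Those 165 became 24, 80 and 89 under the first 3 of these. They became 2565 under the analysis of variance by construct unadjusted and 2622 with limma's unadjusted p. They became 255 without the dimmest 30% of features and 584 with an intensity trend and robust prior. Leaving out 1 array gave 17 to 23 genes above 2-fold and 62 to 88 at an adjusted p under 0.05; the lowest of each came without 1 of the IL-13-treated and 1 of the mock-treated knockdown arrays. All 19 genes kept an adjusted p under 0.05 in all 8 such fits, as did 56 of the 186 features, while 50 lost it in every fit. These fits also have fewer degrees of freedom, and the cause of the losses was not tested.

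IL13RA2 (-1.40) had an unadjusted p of 0.0667 and an adjusted p of 0.517 in the analysis of variance by construct alone. It had a limma adjusted p of 0.358 without the treatment term. TP63 (0.94) had 0.466 in the adjusted analysis of variance, 0.142 without the prior and 0.303 without the treatment term; without 1 array its change was 0.85 to 1.09, and it missed the threshold in 6 of 8 fits. The interaction had 1304 features at an unadjusted p. The share keeping its sign was 83% without the dimmest 30% and 88% with symbols only. It was 68% with 25 features at each end and 75.5% with 100. The cause of these changes was not tested. No paired analysis was possible because the array columns carry no replicate numbers.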
